A study of Mus musculus with 7 samples.

Results

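The 35 genes described here encode the vacuolar proton pump (V-ATPase) and other proteins of the lysosome, and were taken by name from the 27179 genes counted in sorted mouse CD8 dendritic cells. They comprise 13 subunits of the pump and its 2 accessory proteins, 9 lysosomal hydrolases, 3 activators and lipid carriers, 6 lysosomal membrane proteins and 2 MiT/TFE transcription factors. All 35 were found in the files and all 35 passed the filter on low counts. The study measured total RNA of CD8 dendritic cells from C57BL/6 mice, isolated by fluorescence-activated sorting, at different surface levels of CD103, the integrin alpha E chain. The title relates the cells to paralysed dendritic cells, that is, cells that start responses poorly, after a systemic inflammatory syndrome. The CpG CD103 high group (n = 2) was treated with CpG, short DNA that Toll-like receptor 9 senses. The CD103 low group (n = 2) and the CD103 negative group (n = 3) were labelled untreated. All 7 samples share the strain and the CD8 sort, and the labels give neither age nor dose nor time after treatment. CpG treatment and a high CD103 level occur in the same libraries and cannot be told apart.

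Lysosomes break down what a cell takes up or sequesters, and dendritic cells use the same compartment to cut antigens for presentation. The V-ATPase acidifies the lumen: its cytosolic V1 sector hydrolyses ATP, and its membrane V0 sector carries the protons across. Hydrolases work at the acidic pH so produced, activator proteins present lipids to them, and membrane proteins line the compartment and move its products out. TFEB and TFE3 are transcription factors of the MiT/TFE family, which bind the letters CACGTG, most often as TCACGTG, in the promoters of many of these genes.

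RefSeq promoters (build GRCm38.p6, the build mm10 of the files, from 250 bases before to 50 after the start) were at hand for 29 of the 35 members. CACGTG, read on both strands, stood in 8 of these 29 (27.6%), against 12.1% of all tested genes with a promoter. TCACGTG, which contains CACGTG, stood in 8 of 29 as well (27.6%), against 7.35% of tested genes. The 13 sites in these 8 promoters were all of the longer form, and 11 of them began within 75 bases of the start. The 8 genes are Lamp1 with 4 sites, Mcoln1 and Atp6v0b with 2 each, and Atp6v0d1, Atp6v0e, Atp6v1a, Glb1 and Gaa with 1 each. The 100 bases before the start are printed below for the members with more than 1 site and for Grn and Psap, the 2 members called higher under every alternative tried, which hold none of these letters in the window. CACGTG is in capitals.
Lamp1 (chr8:13159061-13159160, plus strand): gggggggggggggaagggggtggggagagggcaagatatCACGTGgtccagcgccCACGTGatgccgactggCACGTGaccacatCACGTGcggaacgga
Mcoln1 (chr8:3500419-3500518, plus strand): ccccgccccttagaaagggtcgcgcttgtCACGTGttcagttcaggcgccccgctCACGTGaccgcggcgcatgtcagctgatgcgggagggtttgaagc
Atp6v0b (chr4:117887330-117887429, minus strand): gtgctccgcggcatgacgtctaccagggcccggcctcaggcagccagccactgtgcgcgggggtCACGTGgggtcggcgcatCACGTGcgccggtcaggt
Grn (chr11:102430407-102430506, plus strand): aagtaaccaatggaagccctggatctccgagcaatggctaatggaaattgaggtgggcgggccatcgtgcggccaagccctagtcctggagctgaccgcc
Psap (chr10:60277528-60277627, plus strand): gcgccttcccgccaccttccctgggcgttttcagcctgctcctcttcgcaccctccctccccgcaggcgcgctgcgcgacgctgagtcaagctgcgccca
These matches are letters in a sequence and no measured binding. Lamp1 was lower and Mcoln1 and Atp6v0b were higher in CpG CD103 high over CD103 negative cells. CACGTG stood in 2 of 11 members called higher, in 1 of 3 called lower and in 5 of 15 not called.

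Libraries held 4474211 to 4629181 counts, and 10863 genes entered the tests. Levels are given as counts per 1000000 counts (CPM) on a library size scaled by the trimmed mean of M-values (TMM), and, where genes are compared with each other, per kilobase of gene length as well (RPKM). At this depth 3 counts, the limit that a count of 0 allows, equal 0.648 to 0.671 CPM, and this covers counting error only. Itgae, which encodes CD103, stood at 992 to 1019 CPM in CpG CD103 high, 346 to 375 in CD103 low and 54.3 to 62.7 in CD103 negative libraries, in the order of the sort. Markers of the type 1 conventional subset, to which CD8 dendritic cells belong, summed to 16360 to 17280, 11110 to 11770 and 8927 to 10510 CPM in the same order of groups. These 9 genes include Itgae and Cd8a, so part of this order follows from the sort on CD103. Their log2 fold changes in CpG CD103 high ranged from -0.15 to 4.01 over CD103 negative and from -0.37 to 1.28 over CD103 low. Markers of erythroid cells and platelets, 7 genes, summed to 23.7 and 29.8 CPM in CpG CD103 high libraries, 16.8 and 7.59 in CD103 low and 2.59 to 3.41 in CD103 negative libraries, with Gp1bb at 0 in all libraries; their part in the results was not tested. The labels also date the libraries. The CpG CD103 high libraries and CD103 negative replicates 1 and 2 carry the year 2012, and the CD103 low libraries and CD103 negative replicate 3 carry 2013; what the dates mark is not stated. The year was a term of the test, so that CpG CD103 high was set against CD103 negative replicates 1 and 2, and CD103 low against CD103 negative replicate 3 alone.

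The 35 members held 3.71% and 3.8% of all counts in CpG CD103 high libraries, 3.37% and 3.35% in CD103 low libraries, and 2.98%, 3.1% and 3.04% in CD103 negative libraries. Most of this was Psap, which encodes prosaposin, the precursor of the saposins that help hydrolases reach membrane lipids. Psap ranked 2 or 3 among all genes in every library and alone held 1.71% to 2.4% of counts. Ppt1, the lysosomal thioesterase that removes palmitate from proteins, ranked between 10 and 14, and Man2b1, the lysosomal alpha-mannosidase, between 29 and 41. At the other end stood Cd63, which held 2.88 to 14.2 CPM, and the proteolipid gene Atp6v0c, which held 9.76 to 13.6 CPM. Without Psap the members' sum was 14380 and 14120 CPM in CpG CD103 high, 14670 and 14940 in CD103 low, and 12630, 12200 and 12710 in CD103 negative libraries.

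Against CD103 negative cells, RNA was more abundant in CpG CD103 high cells for 5 of 9 hydrolase genes, for the activator genes Psap and Grn, for the membrane protein genes Lamp2, Npc1 and Mcoln1 and for 3 genes of the proton pump, and less abundant for the membrane protein genes Cd63 and Lamp1 and for the regulator Tfeb. Called higher were 13 of 35 members, at an adjusted p under 0.05 of edgeR's quasi-likelihood test with Benjamini-Hochberg adjustment over all genes (edgeR adjusted p below), and 3 were called lower. Together this is 45.7% of members, against 26.3% of all tested genes (14.5% higher and 11.8% lower). The median log2 fold change was 0.09 over the 35 members and -0.01 over all tested genes. CPM of the groups did not overlap for 15 members with CpG CD103 high above and 6 with it below, which among all tested genes held for 22% and 22.7%, 44.7% together. The members called numbered 7 on leaving out CD103 negative replicate 1, 6 on leaving out replicate 2 of that group, 9 without CpG CD103 high replicate 1 and 10 without either CD103 low library; all 16 kept their sign in every alternative tried. DESeq2 called 6, and edgeR with no year term 9 (25.7%, against 14.6% of all tested genes). All genes called also fell, from 2860 to 1738 without CD103 negative replicate 1, 1837 without replicate 2 and 1459 with DESeq2. They numbered 2232 without CpG CD103 high replicate 1, and 2289 and 2290 without CD103 low replicates 1 and 2. In proportion, the members called fell further than all genes called in 3 of these settings. These were without CD103 negative replicate 1 (7 members against 1738 genes), without replicate 2 (6 against 1837) and with DESeq2 (6 against 1459). The members' excess over the share of all tested genes was therefore smaller there, and least without CD103 negative replicate 2. In bulk RNA, a change in the number of cells of a kind and a change in RNA per cell cannot be told apart.

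**Figure D1:**
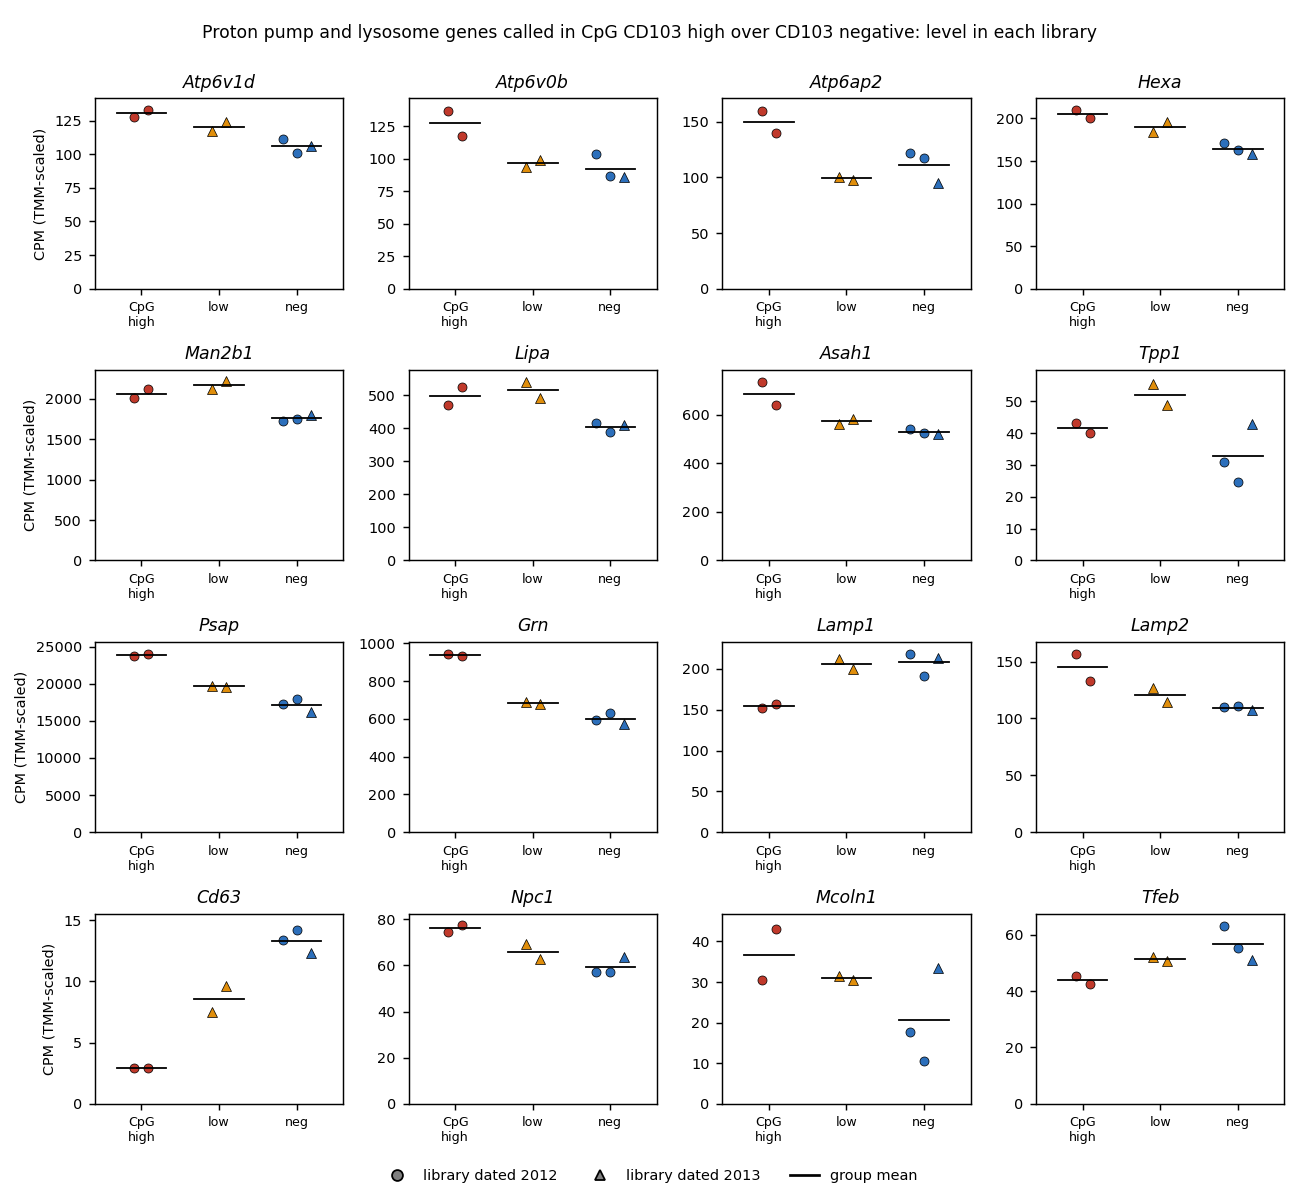
Level of the 16 members called in CpG CD103 high over CD103 negative cells, in CPM on TMM-scaled library sizes (linear axes from 0), 1 panel per gene. Points are libraries (circles dated 2012, triangles dated 2013) and bars are group means for CpG CD103 high (n = 2), CD103 low (n = 2) and CD103 negative (n = 3); Cd63 lies at 2.88 and 2.91 in CpG CD103 high, and in Mcoln1 the CD103 negative library dated 2013, at 33.4, lies above one of the CpG CD103 high libraries.

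Of the pump's 15 genes, 3 were called higher and none lower in CpG CD103 high over CD103 negative cells. This is 20%, against 26.3% of all tested genes (14.5% higher and 11.8% lower). The summed level of the 15 genes was 1581 and 1452 CPM in CpG CD103 high, 1430 and 1431 in CD103 low, and 1438, 1391 and 1297 in CD103 negative libraries. In the V1 sector only Atp6v1d, the D subunit of the central rotor, was called, 1 of 8 (12.5%). It held 128 and 133 CPM in CpG CD103 high, 117 and 124 in CD103 low, and 111, 101 and 106 in CD103 negative libraries. Both CpG CD103 high libraries lay above all others, at 0.30 over CD103 negative on the log2 scale (SE 0.0942, edgeR adjusted p 0.0409). The catalytic A subunit gene Atp6v1a held 83.0 and 80.2 CPM in CpG CD103 high against 78.8, 76.3 and 67.5 in CD103 negative libraries, a log2 fold change of 0.07 (95% interval -0.15 to 0.30, edgeR adjusted p 0.626). The other 6 V1 genes lay between -0.13 and 0.28 on the log2 scale.

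In the V0 sector Atp6v0b, a proteolipid of the rotor ring, was the 1 of 5 genes called (20%, against 26.3% of all tested genes). It held 137 and 118 CPM in CpG CD103 high, 93.8 and 99.1 in CD103 low, and 104, 86.9 and 86.0 in CD103 negative libraries. The CpG CD103 high libraries lay above the rest, with a log2 fold change of 0.42 over CD103 negative (SE 0.116, edgeR adjusted p 0.0251). An antisense gene overlaps 11.8% of its exon bases, and whether the counting used strand is not stated in the labels. Of the accessory proteins, Atp6ap2, also known as the (pro)renin receptor, held 160 and 140 CPM in CpG CD103 high, 101 and 97.9 in CD103 low, and 122, 117 and 95.4 in CD103 negative libraries (0.33, SE 0.0959, edgeR adjusted p 0.0305). Both CpG CD103 high libraries lay above all others. Atp6ap1, its partner in pump assembly, stood at 138 and 147, at 154 and 165, and at 137, 140 and 139 CPM in the same order of groups, and was not called (0.04, edgeR adjusted p 0.745). The other 4 V0 genes lay between -0.27 and 0.09 on the log2 scale. Leaving out 1 library ended the call of Atp6v1d for 6 of the 7 libraries, all but CD103 negative replicate 3 (edgeR adjusted p 0.0553 to 0.19), that of Atp6ap2 for all but CpG CD103 high replicate 2 and CD103 negative replicate 3 (0.0622 to 0.159), and that of Atp6v0b for CpG CD103 high replicate 1, CD103 negative replicate 2 and either CD103 low library (0.0525 to 0.15). DESeq2 called none of these 3.

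**Figure D2:**
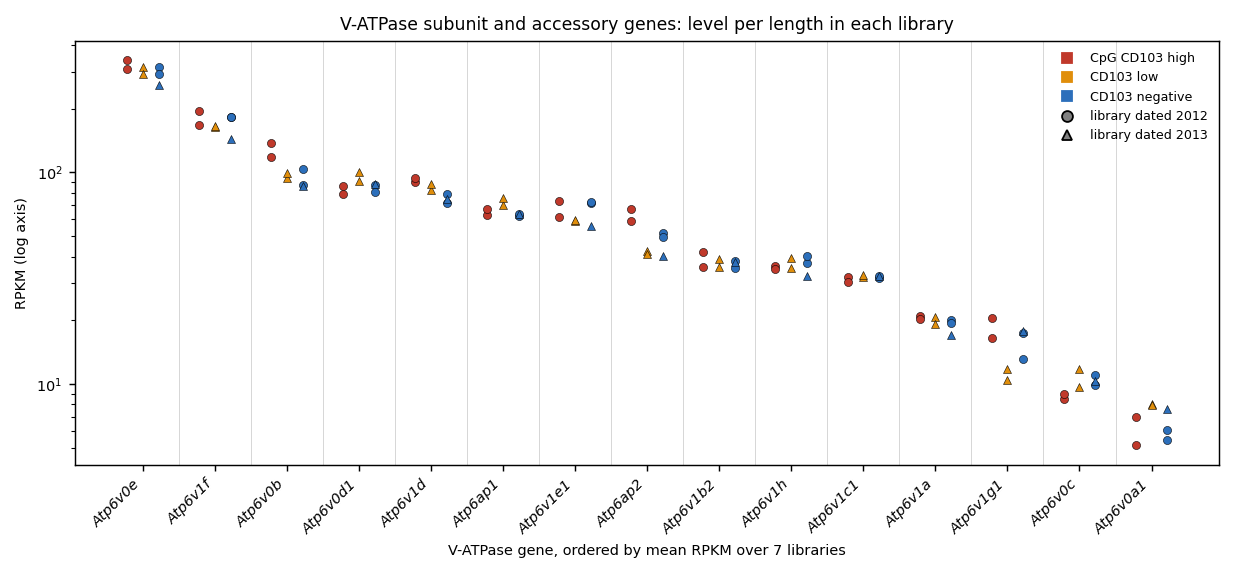
RPKM of the 15 V-ATPase genes in each of the 7 libraries (log axis), ordered by their mean. Colours are the groups CpG CD103 high, CD103 low and CD103 negative, circles are libraries dated 2012 and triangles those dated 2013; the genes run from 303 RPKM for Atp6v0e to 6.74 for Atp6v0a1, while the groups lie close together within most genes.

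Per kilobase, the pump's genes differed widely in level from each other, from a mean over the 7 libraries of 303 RPKM for Atp6v0e and 172 for Atp6v1f to 15.3 for Atp6v1g1, 10.03 for Atp6v0c and 6.74 for Atp6v0a1. The V1 ring genes Atp6v1a and Atp6v1b2 stood at 19.7 and 37.7 RPKM. Processed pseudogenes match 39.3% of the Atp6v0c transcript, 31.5% of Atp6v1g1 and 25.1% of Atp6v1f at over 95% identity, and how reads that map to several places were counted is not stated in the labels. The levels of these 3 genes are therefore uncertain. One such copy, Atp6v0c-ps2, had 48 to 111 counts of its own per library.

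The a subunit, through which protons enter and leave the membrane sector, exists in several isoforms, and Atp6v0a1 was the least expressed of the 3 detected above a few counts. Atp6v0a2 (the a2 form) held 139 and 126 RPKM in CpG CD103 high, 91.1 and 95.1 in CD103 low, and 69.7, 78.8 and 80.7 in CD103 negative libraries. Its groups did not overlap, and the log2 fold change of CpG CD103 high was 0.83 over CD103 negative (SE 0.0941, edgeR adjusted p 0.000288) and 0.63 over CD103 low (edgeR adjusted p 0.0363). Tcirg1 (the a3 form, used by osteoclasts to resorb bone) held 55.3 and 81.9 RPKM in CpG CD103 high, 50.8 and 56.4 in CD103 low, and 19.9, 18.7 and 49.2 in CD103 negative libraries. Here the CD103 negative library dated 2013 lay near the CD103 low libraries and far above the others of its group. The Tcirg1 log2 fold change of CpG CD103 high was 1.83 over CD103 negative (SE 0.166, edgeR adjusted p 9.33e-05) and 1.71 over CD103 low (edgeR adjusted p 0.00616), and the year term itself was 1.35 (edgeR adjusted p 0.00831). Without the year term Tcirg1 stood at 1.23 over CD103 negative (edgeR adjusted p 0.0535) and at 0.36 over CD103 low (0.653). Atp6v0a1 (a1) stood at 6.99 and 5.12 RPKM in CpG CD103 high, 8.06 and 7.93 in CD103 low, and 6.05, 5.4 and 7.61 in CD103 negative libraries.

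**Figure D3:**
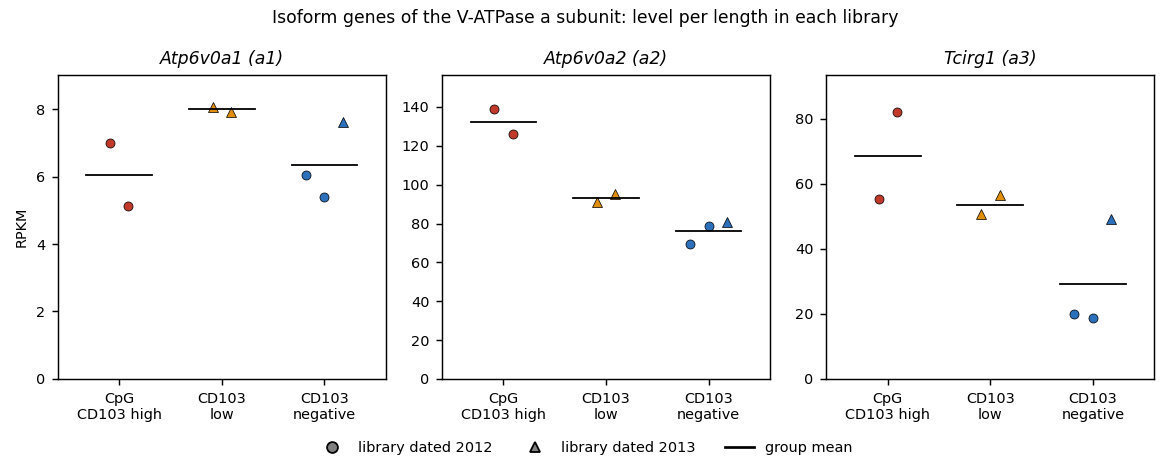
RPKM of the a1, a2 and a3 isoform genes of the V-ATPase a subunit in each library (linear axes from 0, with a range of its own per panel). Points are libraries (circles dated 2012, triangles dated 2013) and bars are group means; Atp6v0a2 is highest in CpG CD103 high, at 139 and 126, and Tcirg1 in the CD103 negative libraries splits into 18.7 and 19.9 (dated 2012) and 49.2 (dated 2013).

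Summed over the isoforms, the a subunit genes held 201 and 213 RPKM in CpG CD103 high, 150 and 159 in CD103 low, and 95.7, 103 and 138 in CD103 negative libraries, with no overlap between groups. The Atp6v0a2 call over CD103 low was lost on leaving out either CD103 low library, CpG CD103 high replicate 1 or CD103 negative replicate 1 (edgeR adjusted p 0.0617 to 0.152), and that of Tcirg1 on leaving out CD103 low replicate 1 (0.0521). Of the isoforms known from kidney, testis, bone and nerve, Atp6v1b1, Atp6v0d2, Atp6v1e2 and Atp6v1g3 had no count in any library, Atp6v0a4 and Atp6v1c2 had 1 count each over all libraries and Atp6v0e2 had 2. Atp6v1g2, the form best known from neurons, had 107 counts over all libraries and made up 11.5% and 15.5% of G subunit RPKM in CpG CD103 high, 18% and 15.5% in CD103 low, and 14.4%, 7.68% and 10.8% in CD103 negative libraries.

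Of the 9 hydrolases, 5 were called higher in CpG CD103 high over CD103 negative cells and none lower (55.6%, against 26.3% of all tested genes). Asah1, the acid ceramidase, held 736 and 640 CPM in CpG CD103 high, 563 and 583 in CD103 low, and 541, 523 and 520 in CD103 negative libraries. Its CpG CD103 high libraries lay above the rest (log2 fold change 0.37, SE 0.0897, edgeR adjusted p 0.0138). Tpp1, a tripeptidyl peptidase, held 43.3 and 40.1 CPM in CpG CD103 high, 55.4 and 48.7 in CD103 low, and 31.0, 24.6 and 43.0 in CD103 negative libraries. The CpG CD103 high and CD103 negative libraries overlapped, since the CD103 negative library dated 2013 was the highest of its group. The Tpp1 log2 fold change was 0.59 with the year term (SE 0.149, edgeR adjusted p 0.0173) and 0.34 without it (edgeR adjusted p 0.308).

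Man2b1 held 2005 and 2122 CPM in CpG CD103 high, 2120 and 2218 in CD103 low, and 1729, 1752 and 1794 in CD103 negative libraries. Lipa, the acid lipase that frees cholesterol from its esters, held 471 and 525, then 541 and 492, then 416, 388 and 409 CPM in the same order of groups. For both genes all 4 libraries of the CpG CD103 high and CD103 low groups lay above the 3 CD103 negative ones. Their log2 fold changes of CpG CD103 high over CD103 negative were 0.25 for Man2b1 (SE 0.074, edgeR adjusted p 0.0345) and 0.31 for Lipa (SE 0.0927, edgeR adjusted p 0.0348). Hexa, the alpha subunit of beta-hexosaminidase, held 210 and 201 CPM in CpG CD103 high, 184 and 195 in CD103 low, and 171, 163 and 158 in CD103 negative libraries, and showed the same arrangement (0.30, SE 0.0849, edgeR adjusted p 0.0265). A gene on the opposite strand, Tmem202, overlaps 12.8% of the Hexa exon bases.

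Ppt1 was not called, with 5757 and 5720 CPM in CpG CD103 high, 6287 and 6486 in CD103 low, and 5194, 4848 and 5391 in CD103 negative libraries (log2 fold change 0.19, edgeR adjusted p 0.0648). The groups did not overlap, and CD103 low stood highest. Gusb, beta-glucuronidase, was the hydrolase with the lowest log2 fold change (-0.13, edgeR adjusted p 0.236). It held 943 and 953 CPM in CpG CD103 high, 1099 and 1179 in CD103 low, and 1012, 1067 and 987 in CD103 negative libraries. Gaa, the glycogen-degrading acid glucosidase, and Glb1, the lysosomal beta-galactosidase, stood at 0.05 and 0.02 on the log2 scale. DESeq2 did not call Man2b1 or Lipa (DESeq2 adjusted p 0.0581 for both), Tpp1 (0.0929) or Hexa (0.126). Man2b1 and Lipa were also not called with no year term (edgeR adjusted p 0.079 and 0.0631) or with 2012 libraries only (0.0744 and 0.0574). Asah1 and Tpp1 lost their calls without CpG CD103 high replicate 1 (edgeR adjusted p 0.069 and 0.0697) or CD103 negative replicate 2 (0.0712 and 0.116), Man2b1 and Lipa without any 1 library other than CpG CD103 high replicate 1 and CD103 negative replicate 3 (0.0712 to 0.128 and 0.061 to 0.186), and Hexa without any but CD103 negative replicate 3 (0.0517 to 0.121).

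Of the 3 activators and lipid carriers, 2 were called higher in CpG CD103 high over CD103 negative cells (66.7%, against 26.3% of all tested genes). Psap (Entrez 19156, mm10 chromosome 10, 60277628 to 60302600) held 23730 and 24060 CPM in CpG CD103 high, 19760 and 19620 in CD103 low, and 17330, 18020 and 16260 in CD103 negative libraries. Each group stood apart from the others, with means of 23890 ± 230.5 in CpG CD103 high (SD, n = 2), 19690 ± 96.8 in CD103 low (n = 2) and 17200 ± 888 in CD103 negative (n = 3). CpG CD103 high was 1.35-fold over CD103 negative (log2 0.44, SE 0.0599, edgeR adjusted p 0.000822). Grn (Entrez 14824, mm10 chromosome 11, 102430507 to 102436809) encodes progranulin, a secreted and lysosomal precursor that binds prosaposin. It held 941 and 934 CPM in CpG CD103 high, 688 and 680 in CD103 low, and 592, 633 and 571 in CD103 negative libraries, again with no overlap, and stood 1.53-fold over CD103 negative (log2 0.61, SE 0.0783, edgeR adjusted p 0.000569). Npc2, which carries cholesterol within the lumen, held 886 and 745, then 882 and 858, then 695, 658 and 739 CPM, and was not called (0.27, edgeR adjusted p 0.0619). Psap and Grn were called under all 15 alternatives tried.

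Lysosomal membrane genes moved in both directions: 3 of 6 were called higher and 2 lower (83.3%, against 26.3% of all tested genes). Cd63 (Entrez 12512, mm10 chromosome 10, 128896231 to 128912822), a tetraspanin of late endosomes and exosomes, had the greatest change of the 35 and was called under all 15 alternatives tried. It held 2.88 and 2.91 CPM in CpG CD103 high (13 counts in each), 7.49 and 9.66 in CD103 low (33 and 42 counts), and 13.4, 14.2 and 12.3 in CD103 negative libraries (61, 66 and 58 counts). The 3 groups did not overlap, and CpG CD103 high lay 2.24 below CD103 negative on the log2 scale (log2 fold change -2.24, SE 0.265, edgeR adjusted p 0.000376). A processed pseudogene matches 73.2% of the Cd63 transcript at 98.5% identity over the longest stretch, so its level is uncertain for the reason given for Atp6v0c. Beside this fall, the summed levels of macrophage markers and of B cell markers were also lower: 31.2 and 55.0 CPM in CpG CD103 high against 88.4 to 130 in CD103 negative libraries for 12 macrophage markers, and 9.32 and 9.86 against 50.2 to 73.3 for 5 B cell markers. In CD103 low libraries these sums were 83.2 and 144, and 52.2 and 53.1 CPM. Single macrophage markers went both ways: of 7 tested 2 were called lower and none higher, while 4 had a log2 fold change above 0, with a median of 0.47 and a range of -2.21 to 2.14. Of 2 tested B cell markers both were lower; Mertk and Cd79a were at 0 in both CpG CD103 high libraries. Markers of the type 2 conventional subset (7 genes) summed to 17.97 and 15.02 CPM in CpG CD103 high libraries. In CD103 negative libraries they summed to 26.52 to 76.41 CPM, and in CD103 low to 51.77 and 43.68. Of 4 tested, 3 were called lower in CpG CD103 high over CD103 negative cells and 0 higher. Of 3 tested monocyte and neutrophil markers 2 were called higher and 1 lower. Their sums overlapped, at 93.84 and 63.87 against 68.73 to 120.5 CPM. The part of these cell types in the result was not tested.

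Lamp1 and Lamp2, major glycoproteins of the lysosomal membrane, went opposite ways. Lamp1 (mm10 chromosome 8, 13159161 to 13175338) held 152 and 157 CPM in CpG CD103 high, 213 and 199 in CD103 low, and 219, 192 and 214 in CD103 negative libraries. Only the CpG CD103 high libraries were low (log2 fold change -0.41, SE 0.0936, edgeR adjusted p 0.0105). Lamp2 (mm10 chromosome X, 38399647 to 38456460) held 157 and 133 CPM in CpG CD103 high, 127 and 115 in CD103 low, and 110, 111 and 108 in CD103 negative libraries, with no overlap between groups (0.39, SE 0.106, edgeR adjusted p 0.0219). DESeq2 did not call Lamp2 (DESeq2 adjusted p 0.082). Leaving out CD103 negative replicate 1 ended the Lamp1 call (-0.31, edgeR adjusted p 0.0735), and leaving out that library, CD103 negative replicate 2 or CpG CD103 high replicate 1 ended the Lamp2 call (0.0863, 0.077 and 0.124).

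Npc1, the membrane protein that takes cholesterol from Npc2 and passes it out of the lysosome, held 74.5 and 77.5 CPM in CpG CD103 high, 69.3 and 62.8 in CD103 low, and 57.1, 57.3 and 63.6 in CD103 negative libraries. The CpG CD103 high libraries were the highest (0.41, SE 0.107, edgeR adjusted p 0.0193). Npc1 was not called with DESeq2 (DESeq2 adjusted p 0.147) or with no year term (edgeR adjusted p 0.0578). Scarb2, the receptor that brings glucocerebrosidase to the lysosome, held 131 and 134, then 103 and 94.5, then 112, 112 and 95.8 CPM, and was not called although CpG CD103 high lay above both other groups (0.24, edgeR adjusted p 0.0763). Mcoln1 (mm10 chromosome 8, 3500519 to 3515232) encodes the calcium channel TRPML1. It held 30.4 and 43.0 CPM in CpG CD103 high, 31.6 and 30.6 in CD103 low, and 17.8, 10.6 and 33.4 in CD103 negative libraries. The CD103 negative library dated 2013 lay with the CD103 low libraries, and only the CD103 negative libraries dated 2012 were low. With the year term the log2 fold change was 1.37 (SE 0.239, edgeR adjusted p 0.00267) and without it 0.83 (edgeR adjusted p 0.165). Leaving out CD103 negative replicate 1, CD103 negative replicate 2 or CpG CD103 high replicate 2 ended the Npc1 call (edgeR adjusted p 0.0785, 0.072 and 0.0834) and left that of Mcoln1.

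Of the MiT/TFE factors, Tfeb fell and Tfe3 was not called. Tfeb held 45.3 and 42.6 CPM in CpG CD103 high, 52.2 and 50.8 in CD103 low, and 63.2, 55.4 and 51.1 in CD103 negative libraries. Both CpG CD103 high libraries lay below all others (log2 fold change -0.43, SE 0.12, edgeR adjusted p 0.0246). DESeq2 did not call Tfeb (DESeq2 adjusted p 0.161). Tfe3 held 80.1 and 79.1, then 92.6 and 82.3, then 85.4, 82.6 and 97.5 CPM (-0.08, edgeR adjusted p 0.613). The call of Tfeb was lost without CpG CD103 high replicate 2 (-0.40, edgeR adjusted p 0.0906) or CD103 negative replicate 1 (-0.34, 0.143), and without the year term (-0.36, 0.0869).

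The CD103 low and CD103 negative groups were both untreated and differ by their labels in the level of CD103. None of the 35 passed the threshold of edgeR over CD103 negative, and none did with DESeq2 or limma voom. An unadjusted edgeR p under 0.05 held for 7 of 35, against 797 of all 10863 tested genes. In edgeR 0.138% of all tested genes were called, 15 in number (0.0552% higher and 0.0829% lower). The log2 fold change was positive for 28 of 35 members, with a median of 0.14 against 0.01 over all tested genes. CPM did not overlap for 16 members with CD103 low above and 2 with it below, against 16.2% and 12.2% of all tested genes, 28.3% together. Values for the members with the smallest unadjusted p were 0.28 for Psap (95% interval 0.11 to 0.44, edgeR adjusted p 0.279), 0.27 for Man2b1 (0.07 to 0.48, 0.477), 0.34 for Lipa (0.08 to 0.59, 0.498) and 0.24 for Ppt1 (0.05 to 0.43, 0.514). Grn stood at 0.26 (edgeR adjusted p 0.541), Hexa at 0.26 (0.598) and Atp6v1g1, the G subunit of the V1 stalk, at -0.68 (0.541).

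The 9 hydrolases summed to 10980 and 11320 CPM in CD103 low against 9224, 8883 and 9428 in CD103 negative libraries, with 10300 and 10320 in CpG CD103 high. In 8 of these 9 genes the CD103 low libraries lay above all CD103 negative ones, which held for 16.2% of all tested genes. None of the 9 was called. Because the test sets CD103 low against 1 library, the comparison was also made against CD103 negative replicates 1 and 2 with no year term, an alternative chosen after seeing the data. It called 9.61% of all tested genes and 5 members (14.3%), all higher: Tpp1 (0.88, edgeR adjusted p 0.00765), Ppt1 (0.32, 0.0215), Mcoln1 (1.11, 0.0227), Man2b1 (0.29, 0.0392) and Lipa (0.33, 0.0498). The groups then differ in year as well, and the year cannot be told apart from the CD103 level. CD103 negative replicate 3 also held the most RNA of several other cell types. Markers of the type 2 conventional subset (7 genes) summed to 43.7 to 51.8 CPM in CD103 low libraries against 76.4 in that library, plasmacytoid markers (6 genes) to 133 to 149 against 220, and monocyte and neutrophil markers (8 genes) to 30.1 to 36.8 against 120.5. Of 3 tested monocyte and neutrophil markers, 2 were called lower in CD103 low over CD103 negative cells, against 0.138% of all tested genes. The other marker went the opposite way, with a log2 fold change of 1.32. Of 4 tested markers of the type 2 conventional subset 0 were called, and 1 had a log2 fold change above 0 (0.44). Of 4 tested plasmacytoid markers 0 were called and 0 lay above 0. Other lists were not highest in that library. Macrophage markers (12 genes) summed to 144 and 83.2 CPM in CD103 low replicates 1 and 2 against 130 in CD103 negative replicate 3. T cell markers (6 genes) summed to 3.18 and 26.2 against 1.92 CPM. The part of these cell types in the results was not tested.

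**Figure D4:**
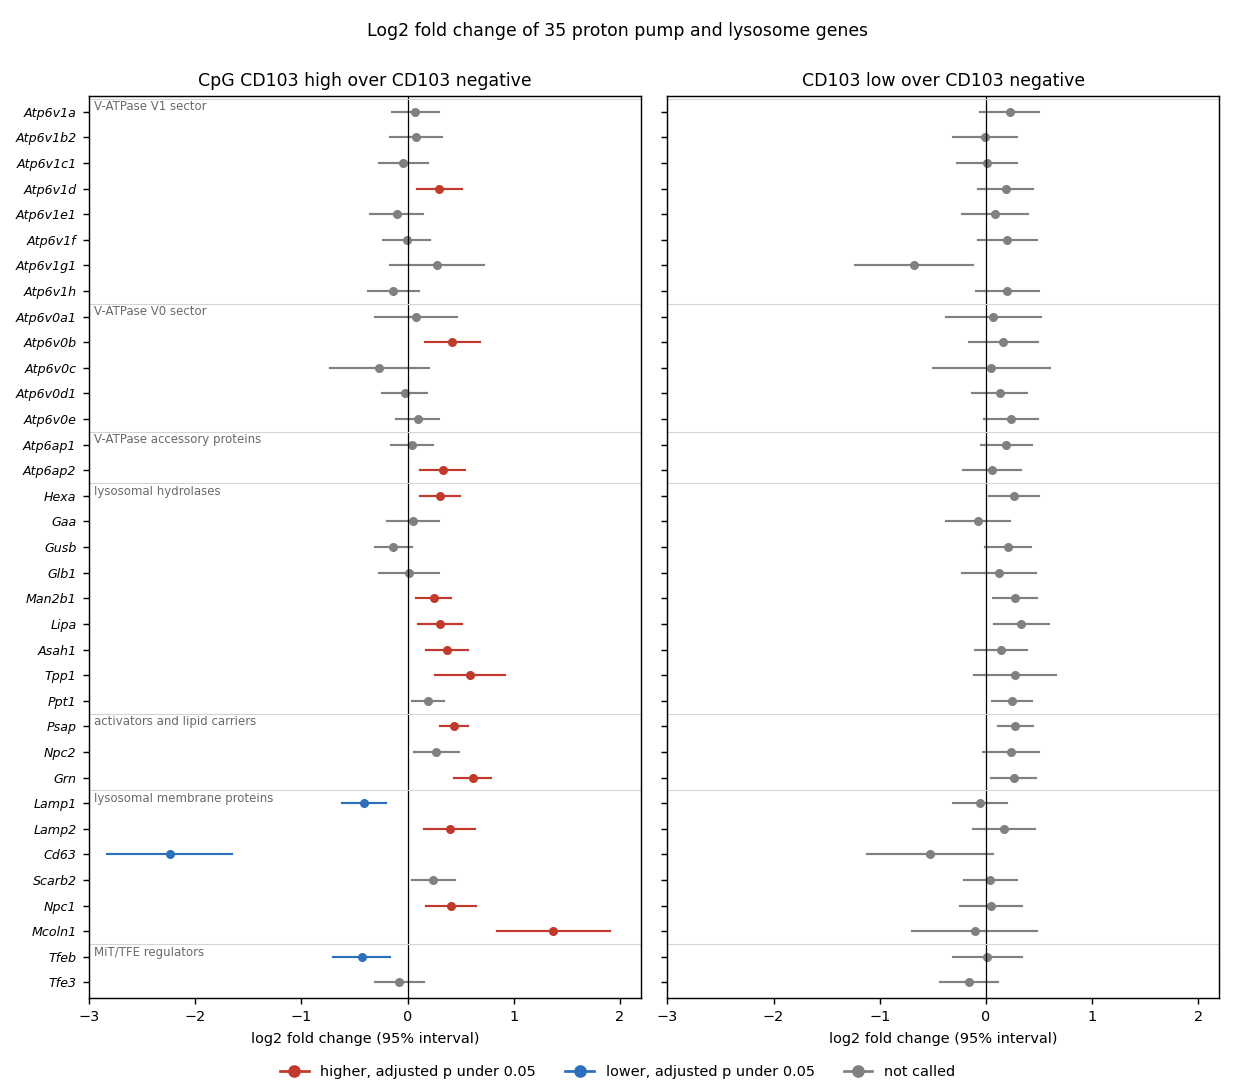
Log2 fold change of each of the 35 members with its 95% interval, in CpG CD103 high over CD103 negative (left) and CD103 low over CD103 negative (right), grouped by role. Red marks genes called higher, blue genes called lower and grey genes not called; 13 genes are red and 3 blue on the left, and none is coloured on the right.

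All CpG CD103 high libraries are dated 2012 and all CD103 low libraries 2013, so with the year term their comparison is the difference between each group's distance from CD103 negative libraries of its own year. By this measure 2 members differed, 5.71% of the 35 against 6.22% of all tested genes (3.44% higher, 2.78% lower). Cd63 was lower (log2 fold change -1.72, SE 0.384, edgeR adjusted p 0.0304), with 2.88 and 2.91 CPM in CpG CD103 high against 7.49 and 9.66 in CD103 low libraries. Mcoln1 was called higher (1.48, SE 0.357, edgeR adjusted p 0.0393) although its CPM overlapped, at 30.4 and 43.0 against 31.6 and 30.6. That value carries the year term, which for Mcoln1 was 1.24 (SE 0.283, edgeR adjusted p 0.045), the 1 member called for year, higher in 2013, against 3.46% of all tested genes (2.16% higher). Without the year term Mcoln1 stood at 0.24 (edgeR adjusted p 0.778). For members with no overlap in CPM the sign could oppose the levels: Tpp1 stood at 0.31 (edgeR adjusted p 0.446) with 43.3 and 40.1 CPM in CpG CD103 high against 55.4 and 48.7 in CD103 low libraries, and Atp6v1e1 at -0.19 (0.563) with 88.5 and 74.0 against 71.3 and 71.7. The remaining values were not called, among them 0.35 for Grn (edgeR adjusted p 0.117), -0.34 for Gusb (0.134), -0.36 for Lamp1 (0.179) and 0.16 for Psap (95% interval -0.05 to 0.37, 0.345). CPM of these groups did not overlap for 25 members, 13 with CpG CD103 high above and 12 with it below, against 58.6% of all tested genes (28.1% and 30.6%). DESeq2 called 0 members. In edgeR 7 of 35 had an unadjusted p under 0.05, against 2553 of all 10863 tested genes. With no year term 4 members were called, against 8.01% of all tested genes: Cd63 (-1.56, edgeR adjusted p 0.00997), Grn (0.46, 0.0188), Atp6ap2 (0.59, 0.0315) and Lamp1 (-0.42, 0.0448). With CD103 negative replicates 1 and 2 as the only CD103 negative libraries and no year term, an alternative chosen after seeing the data, 8 were called, against 15.5% of all tested genes. They were Cd63 (-1.54, edgeR adjusted p 0.00631) and Lamp1 (-0.40, 0.0186), both lower, and Atp6ap2 (0.61, 0.00257), Grn (0.47, 0.0033), Psap (0.30, 0.0092), Scarb2 (0.44, 0.0096), Atp6v0b (0.42, 0.036) and Atp6v1g1 (0.75, 0.0383), all higher. In neither of these can the year be told apart from the groups. Leaving out any of 6 libraries ended the Cd63 call (edgeR adjusted p 0.0558 to 0.123), and leaving out either CD103 low library, CD103 negative replicate 2 or CpG CD103 high replicate 2 ended that of Mcoln1 (0.0809 to 0.14).

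Beyond the 35 members, 107 further genes of the pump and lysosome were listed and 94 passed the filter. Of these, in CpG CD103 high over CD103 negative cells, 23 were called higher and 5 lower (29.8%, against 26.3% of all tested genes), with a median log2 fold change of 0.21. By list, the share called was 36.4% for other pump genes, 30.8% for other hydrolases and 38.9% for other membrane proteins and channels. It was 40% for enzyme sorting, 20% for regulators and nutrient sensors and 14.3% for tethering and fusion. In CD103 low over CD103 negative cells none was called, while DESeq2 called 1 and limma voom 0. An unadjusted edgeR p under 0.05 held for 9 of the 94, against 797 of all 10863 tested genes. The most abundant gene of each list stood at 0.45 for Gm2a (edgeR adjusted p 0.0997), 0.30 for Fnip2 (0.728), 0.21 for Atp6v0a2 (0.768), 0.15 for Laptm5 (0.782), 0.09 for M6pr (0.905) and -0.08 for Stx7 (0.939). In CpG CD103 high over CD103 low cells 8 were called higher and 3 lower (11.7%, against 6.22% of all tested genes, 3.44% higher and 2.78% lower). Each of these 11 calls was lost when at least 1 library was left out: 1 remained in number without either CD103 low library, 2 without CD103 negative replicate 1 and 5 without CpG CD103 high replicate 2. Over CD103 negative, 18 were called with no year term, 18 without CD103 negative replicate 1 and 17 without CpG CD103 high replicate 2.

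Besides Tcirg1 and Atp6v0a2, the list of other pump genes held 2 more called of 11, Dmxl1 and Wdr7, both higher. Dmxl1, a rabconnectin that helps join the pump's sectors, held 105 and 112 CPM in CpG CD103 high, 95.6 and 74.3 in CD103 low, and 67.6, 76.3 and 97.7 in CD103 negative libraries. Its CpG CD103 high libraries lay above all others (over CD103 negative 0.59, SE 0.131, edgeR adjusted p 0.009; over CD103 low 0.79, 0.0488). Without CpG CD103 high replicate 2 or CD103 negative replicate 1 the first call was lost (0.0542 and 0.0637), as it was with no year term (0.43, 0.118). The second was lost without any 1 of 6 libraries (0.0555 to 0.158), and with no year term (0.35, edgeR adjusted p 0.286).

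Among the other hydrolases 7 of 26 were higher and 1, Galc, was lower. Ctsa, which protects beta-galactosidase and sialidase in a complex with them, held 192 and 189 CPM in CpG CD103 high, 151 and 129 in CD103 low, and 113, 101 and 147 in CD103 negative libraries. CpG CD103 high lay above both groups (over CD103 negative 0.83, SE 0.105, edgeR adjusted p 0.000526; over CD103 low 0.90, 0.0147, and 0.0755 without CD103 low replicate 2). Ctsa stood at 0.44 over CD103 low with no year term (edgeR adjusted p 0.152). Galns, a sulfatase of keratan sulfate, stood at 0.77 over CD103 negative (edgeR adjusted p 0.00346). Gm2a, the activator that lifts ganglioside GM2 for the enzyme Hexa belongs to, was the most abundant of this list and held 7624 and 7577 CPM in CpG CD103 high, 5705 and 5571 in CD103 low, and 6085, 5532 and 4127 in CD103 negative libraries (0.39, SE 0.0717, edgeR adjusted p 0.0037).

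Among the other membrane proteins and channels 5 of 18 were higher and 2 lower. Higher were Tpcn2, a two-pore cation channel (log2 fold change 0.87, edgeR adjusted p 0.0021), Clcn7, the chloride and proton exchanger (0.80, 0.00236), and Cln3, the Batten disease protein (1.22, 0.00061, and 0.81, 0.0856 without the year term). Over CD103 low, Cln3 stood at 1.24 (edgeR adjusted p 0.0182), a call lost without CD103 negative replicate 1 or either CD103 low library (0.0605 to 0.0942), and at 0.27 (0.661) without the year term. Cd68, a LAMP-family glycoprotein, held 204 CPM in both CpG CD103 high libraries, 311 and 310 in CD103 low, and 277, 253 and 278 in CD103 negative libraries. Like Lamp1 it was low only in CpG CD103 high (-0.38, edgeR adjusted p 0.00957, and -0.31, 0.0631 without CD103 negative replicate 1). Laptm4b was also lower (-0.61, edgeR adjusted p 0.0139), a call lost without CD103 negative replicate 1 (0.099) or CpG CD103 high replicate 2. A processed pseudogene matches 36% of the Laptm4b transcript at 96.6% identity over the longest stretch, so its level is uncertain as for Atp6v0c. Over CD103 low, Cd68 stood at -0.54 (edgeR adjusted p 0.0431) and Laptm4b at -0.91 (0.0479); leaving out either CD103 low library, CD103 negative replicate 1 or CpG CD103 high replicate 2 ended both calls, and CpG CD103 high replicate 1 also that of Cd68 (0.0598 to 0.172).

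Of 10 genes that sort new enzymes to the lysosome 3 were higher and 1 was lower, with receptors in both directions. Igf2r, the large mannose 6-phosphate receptor, held 137 and 193 CPM in CpG CD103 high, 117 in both CD103 low, and 57.3, 77.0 and 84.1 in CD103 negative libraries (log2 fold change 1.30, SE 0.172, edgeR adjusted p 0.000668). Sort1, sortilin, held 46.8 and 49.5 CPM in CpG CD103 high, 102 and 121 in CD103 low, and 95.5, 89.9 and 122 in CD103 negative libraries (-0.94, SE 0.116, edgeR adjusted p 0.000453). Neither overlapped between CpG CD103 high and CD103 negative. Over CD103 low, Sort1 stood at -0.82 (edgeR adjusted p 0.0268), a call lost without CD103 negative replicate 1 or either CD103 low library (0.0647 to 0.118). Gga3, an adaptor that packs these receptors at the Golgi, was called at 0.67 over CD103 negative (edgeR adjusted p 0.00845) and 0.93 over CD103 low (0.0385), although its CPM overlapped. With no year term Gga3 stood at 0.31 (0.464) and 0.05 (0.947), and the calls were also lost without CpG CD103 high replicate 2 or CD103 negative replicate 1 (0.0502 to 0.0996), and that over CD103 low without CD103 negative replicate 2 or either CD103 low library (0.0759 to 0.147). M6pr, the small mannose 6-phosphate receptor and the most abundant gene of the list, stood at 0.01 (edgeR adjusted p 0.969).

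Of 15 regulators and nutrient sensors 2 were higher and 1 lower. Fnip2, a partner of folliculin, held 210 and 251 CPM in CpG CD103 high, 184 and 167 in CD103 low, and 96.2, 114 and 143 in CD103 negative libraries (log2 fold change 1.13, SE 0.119, edgeR adjusted p 0.000212). The groups did not overlap. Over CD103 low, Fnip2 stood at 0.83 (edgeR adjusted p 0.03) and Mtor at 0.61 (0.0355), calls lost without either CD103 low library, CD103 negative replicate 1 or CpG CD103 high replicate 2, and for Mtor also CD103 negative replicate 2 (0.0611 to 0.14). Both were also lost over CD103 low with no year term, at 0.39 for Fnip2 (edgeR adjusted p 0.212) and 0.33 for Mtor (0.158). Mtor, the kinase that gathers at the lysosome when nutrients are plentiful, was higher (0.43, edgeR adjusted p 0.00687, and 0.33, 0.0836 without the year term), and its activator Rheb lower (-0.46, edgeR adjusted p 0.0154), a call lost without any 1 of the CpG CD103 high libraries or of CD103 negative replicates 1 and 2 (0.0503 to 0.0648). Tethering and fusion genes gave 2 calls of 14, both higher: Plekhm1, an adaptor of Rab7, at 0.60 (edgeR adjusted p 0.00319) and Vps11, a core subunit of the HOPS and CORVET complexes, at 0.42 (0.00951, and 0.0648 and 0.0619 without CpG CD103 high replicate 2 or CD103 negative replicate 1).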

How the data were processed

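Total RNA of 7 sorted samples was sequenced on Illumina libraries after extraction with a column kit, per the labels' protocols. The authors deposited raw read counts per gene, with Entrez IDs, positions and gene lengths. The submitters' processing notes name CASAVA, Subread 1.4.6, featureCounts and the build mm10; strand setting, treatment of reads with several matches and annotation are stated neither there nor in the labels. Symbols were matched for 25275 of 27179 IDs, and the IDs with no symbol held 0.533% of counts. The series table's 7 columns match no sample label and were not used. The series design calls the samples biological replicates, and replicates differed beyond counting noise.

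From the counts, edgeR 4.0.16 (R 4.3.3) fitted group and year over all 7 libraries (3 residual degrees of freedom), with TMM scaling, its own expression filter and the quasi-likelihood test. Benjamini-Hochberg adjustment ran over the 10863 genes tested, and the threshold was 0.05. The SE was derived from the log2 fold change and its F value. CPM and RPKM were computed from the counts, with the deposited gene lengths. DESeq2 1.42.0, limma 3.58.1 voom, other filters and scalings, no year term, single years, a replicate block in place of the year term and each library left out were the alternatives.

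The members and lists were chosen with earlier results of these data known. Named were all members called in any comparison, the most abundant member of role groups with no call, and up to 3 called genes of each further list per comparison, or its most abundant gene. Other genes named were picked after their values were seen, and 1 gene that the rule names is not reported here. Copies were sought by matching transcripts to GENCODE transcripts, and promoters came from RefSeq. CD103 negative replicate 3 is the 1 library of its group dated 2013.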

Additional observations from a re-analysis of the deposited data

How the results depend on the processing

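The groups hold 2 or 3 libraries, and the year term leaves CD103 low set against 1 library. In CpG CD103 high over CD103 negative cells only genes called in that comparison were followed under the alternatives. Of their values, 434 kept direction and side of the threshold, 91 kept only direction and none reversed. These genes were chosen by their calls and the alternatives use the same libraries, so the kept direction is no separate support. Members called numbered 6 with DESeq2, 9 with no year term and 6 to 16 with 1 library left out; other pathway genes 18 with no year term and 17 to 28 with 1 library left out; all genes 1459 with DESeq2, 1589 with no year term and 1738 to 2861 with 1 library left out. The causes were not tested.

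In CD103 low over CD103 negative cells, members called numbered 6 with the replicate block and 5 against CD103 negative replicates 1 and 2 alone, an alternative chosen after seeing the data. The replicate block stood in place of the year term. As replicate number 3 occurs in 1 library only, the block also set CD103 low against CD103 negative replicates 1 and 2. In the comparisons with CD103 low the year then cannot be told apart from the groups, as in the other alternative. Other pathway genes called numbered 1 with DESeq2, 3 with 2013 libraries only, 16 with the replicate block and 14 against CD103 negative replicates 1 and 2. All genes called numbered 1 with no filter, 33 with DESeq2, 187 with 2013 libraries only, 1175 with the replicate block, 1035 against CD103 negative replicates 1 and 2, and 1 to 27 with 1 library left out. In CpG CD103 high over CD103 low cells, members called numbered 0 with no filter, 0 with DESeq2, 4 with no year term, 9 with the replicate block, 8 with CD103 negative replicates 1 and 2 alone and 0 to 1 with 1 library left out. Other pathway genes called numbered 2, 5, 8, 19 and 18 under the same settings in turn and 1 to 9 with 1 library left out, and all genes 263, 390, 870, 1775 and 1668, and 115 to 748.

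The labels do not say what the replicate numbers mark, and with 2 shared numbers the data do not settle whether they pair the samples. Deviations of samples with the same number correlated at 0.168 between CpG CD103 high and CD103 negative, -0.00641 between CpG CD103 high and CD103 low, and 0.00245 between CD103 low and CD103 negative. With the replicate block 17 members were called in CpG CD103 high over CD103 negative cells.

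Log2 fold changes reversed as follows. In CD103 low over CD103 negative cells, Tfeb was -0.13 with no year term, -0.20 with the replicate block, -0.006107 to 0.03317 with 1 library left out (lowest without CD103 low replicate 1) and -0.23 against CD103 negative replicates 1 and 2. Mcoln1 was 0.59, 1.13 and 1.11, and Atp6ap2 -0.16, -0.27 and -0.29, with no year term, the replicate block and CD103 negative replicates 1 and 2. Npc1 ranged over -0.01836 to 0.1232 with 1 library left out (lowest without CD103 low replicate 1), Lamp1 was 0.0057 with the replicate block and Atp6v0b was -0.0096 against CD103 negative replicates 1 and 2. In CpG CD103 high over CD103 low cells, Tpp1 was -0.32, -0.32 and -0.30 under those 3 settings. With 1 library left out, Lipa ranged over -0.1096 to 0.04509, above 0 without CD103 low replicate 1, CD103 negative replicate 1 or CpG CD103 high replicate 1. Man2b1 ranged over -0.07049 to 0.009229, above 0 without CpG CD103 high replicate 1 or CD103 low replicate 2. Hexa ranged over -0.006821 to 0.07745, below 0 without CD103 low replicate 1. Without CD103 negative replicate 3 the comparisons with CD103 low could not be fitted with the year term.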

Other observations

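The CD103 negative libraries of the 2 years differed in some genes of the pathway. Of the 94 further pump and lysosome genes tested, 4 were called higher and 2 lower for the library dated 2013 over those dated 2012 (6.38%, against 3.46% of all tested genes) by edgeR. Gm2a held 4127 CPM in the library dated 2013 and 6085 and 5532 CPM in those dated 2012 (log2 fold change -0.49, edgeR adjusted p 0.0183). Cln3 held 69.0 CPM in the library dated 2013 and 31.2 and 38.8 CPM in those dated 2012 (0.98, edgeR adjusted p 0.0241). Gga3 (0.89, 0.0249), Plekhm2 (0.64, 0.0417) and Tcirg1 were also higher, and Lamtor1, a part of the scaffold that holds mTOR complexes at the lysosome, was lower (-0.74, 0.0204). Their choice followed from these values, and a single library stands on the side of 2013. A processed pseudogene matches 43.4% of the Lamtor1 transcript at 98.4% identity over the longest stretch, so the level of Lamtor1 is uncertain as for Atp6v0c.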
